A study of Canis lupus familiaris with 6 samples.

Results

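The 10 receptor tyrosine kinases KIT, PDGFRA, PDGFRB, EGFR, ERBB2, ERBB3, MET, AXL, FGFR1 and IGF1R were followed in CMM10, a cell line from a canine malignant melanoma, under hypoxia and under normoxia. They were taken by symbol, each symbol matched exactly 1 of the 29822 genes in the deposited tables, and all 10 passed the filter on low counts. RNA was measured in 3 hypoxia libraries and 3 normoxia libraries, numbered 1 to 3 in each condition. Both groups are the same line with no genetic change named, and the labels give neither an oxygen level nor a duration. A single line is 1 model, and the labels do not say whether the libraries came from separate cultures, so p-values measure the spread between these libraries, which may be technical.

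Receptor tyrosine kinases sit in the cell membrane, bind a growth factor outside the cell, pair up and phosphorylate each other, and so switch on the RAS, ERK and PI3K pathways. Normal melanocytes depend on KIT and its ligand, stem cell factor, and melanoma cells can draw on several other receptors, among them MET, EGFR, ERBB3, AXL, IGF1R and the PDGF receptors. In human melanoma, high AXL and EGFR are known from cells with low levels of the melanocyte factor MITF. The data here are transcript levels, and receptor protein and phosphorylation were not measured.

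The libraries held 27272709 to 28804337 gene reads under hypoxia and 23196647 to 27012866 under normoxia, so the hypoxia libraries were the deeper ones. Reads of the 10 receptors numbered 13948 to 14299 in the hypoxia libraries and 11477 to 13205 in the normoxia libraries. The labels were checked on CA9, SLC2A1 and VEGFA, known responders to low oxygen, which were 13.7-fold, 5.63-fold and 3.49-fold higher in the hypoxia libraries. Of 11 measured melanocyte markers, SOX10 averaged 72.2 and 54.5, DCT 44.8 and 52.9 and MITF 23.5 and 24.5 TPM (the deposited length-scaled transcript unit) under hypoxia and normoxia, whereas TYR was listed at 0 in all libraries and TYRP1 averaged 0.020 and 0.021. All 11 summed to 174.6 to 188.8 TPM under hypoxia and 161.9 to 177.0 TPM under normoxia, and 3 averaged under 1 TPM. Of 9 tested, 2 rose, 2 fell and 5 were not called, where 24.5% of all genes tested were higher and 24.4% lower. The line also carried transcripts of other lineages, with EPCAM at 145 TPM under hypoxia and 163 TPM under normoxia and COL1A2 at 2735 and 2108 TPM in that order, and 11 leukocyte markers summing to 11.99 to 13.22 TPM under hypoxia and 4.88 to 6.20 TPM under normoxia. Of these 11, CD3E and MS4A1 were listed at 0 in all libraries and 10 averaged under 1 TPM, while MPO averaged 11.6 TPM under hypoxia and 3.88 TPM under normoxia and was the 1 of 4 tested that rose.

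Under hypoxia, 3 of the 10 receptors rose, 2 fell and 5 did not pass the test. PDGFRA, a receptor for platelet-derived growth factors, rose most (4.03-fold), followed by EGFR, the epidermal growth factor receptor (1.76-fold), and IGF1R, the receptor of the insulin-like growth factors (1.18-fold). AXL, the receptor of GAS6, and MET, the receptor of hepatocyte growth factor, fell slightly, by 0.27 and 0.15 on the log2 scale. KIT, PDGFRB, ERBB2, ERBB3 and FGFR1 were not called. Calls used an edgeR quasi-likelihood test of gene reads, with Benjamini-Hochberg adjustment over 15397 genes and a threshold of 0.05 on the adjusted p. Every adjusted p below is from edgeR in this way, over the genes tested with that kind of read, unless DESeq2 is named. Of all genes tested, 24.5% were called higher and 24.4% lower, 49.0% in all, so that 5 of 10 receptors called is close to the share over all genes. In CPM, gene reads scaled to library size and TMM normalization factors, the conditions did not overlap for 6 receptors, against 55.3% of all genes tested.

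**Figure D1:**
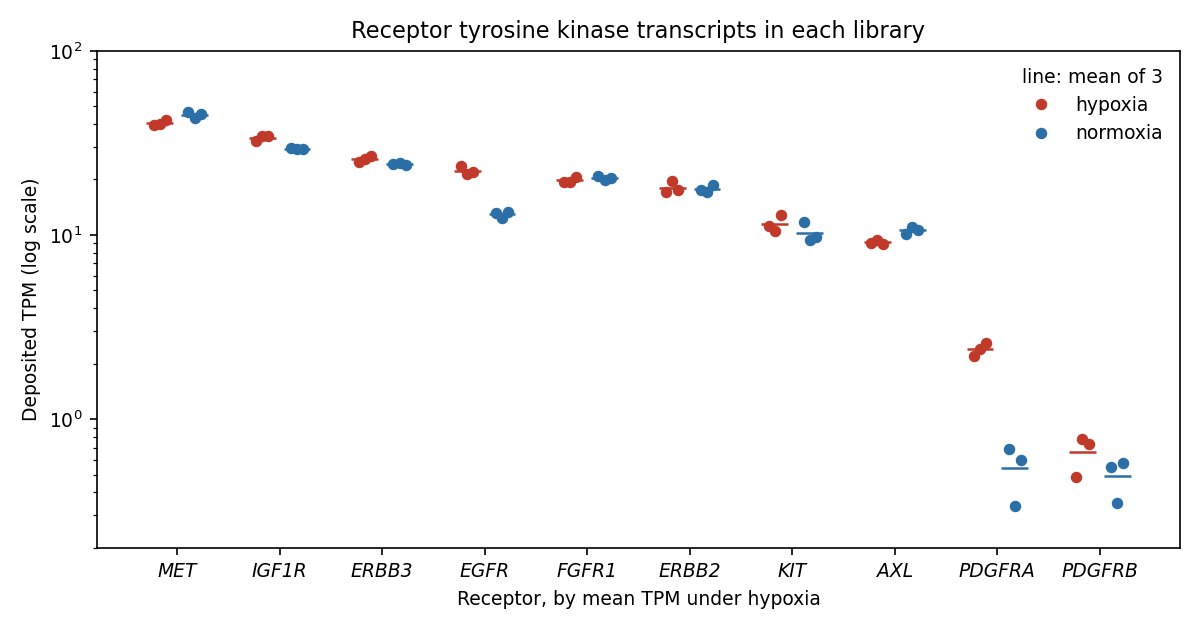
Deposited TPM (vertical axis, log scale) of each receptor in each library, with hypoxia in red and normoxia in blue; each point is 1 library and each line the mean of 3. EGFR (21.5 to 23.6 TPM under hypoxia, 12.4 to 13.4 under normoxia) and PDGFRA (2.21 to 2.59 and 0.34 to 0.69) are set apart by condition, while FGFR1 and ERBB2 overlap.

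TPM divides exon reads by exon length and leaves out intron reads, so receptors can be compared with each other on this scale. MET was the most abundant receptor, at 40.6 ± 1.41 TPM under hypoxia and 45.0 ± 1.75 TPM under normoxia (mean ± SD, n = 3 each). IGF1R and ERBB3 came next in both conditions, and PDGFRA and PDGFRB were lowest in both. EGFR changed its place: under hypoxia it was the fourth, above FGFR1 and ERBB2, and under normoxia it was the sixth, below both. In 39 of the 45 possible pairs of receptors, the TPM ranges over the 6 libraries did not overlap. Neighbours in the order whose ranges overlapped were FGFR1 and ERBB2 under hypoxia, and AXL and KIT as well as PDGFRA and PDGFRB under normoxia. Deposited RPKM and exon reads per length gave the same order. Within a library this had to be so, as TPM and RPKM divide the same exon reads by the same exon length. The order thus rests on the annotated exon lengths, which were not tested. The summed level of the 10 receptors was 183.9 ± 4.59 TPM under hypoxia and 171.7 ± 3.72 TPM under normoxia (n = 3 each, two-sided exact permutation p = 0.1, the smallest that 3 against 3 can give).

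The PDGF receptors differ in their ligands: PDGFRA binds PDGF-AA, -BB and -CC, and PDGFRB mainly PDGF-BB and -DD. PDGFRA (ENSCAFG00000002057, CanFam3.1 chromosome 13, 46730703 to 46773278, plus strand) had 157, 175 and 173 gene reads under hypoxia and 50, 34 and 34 under normoxia, in the order of replicates 1 to 3. Its exon reads, which TPM is scaled from, numbered 130, 137 and 140 under hypoxia and 37, 19 and 28 under normoxia. In TPM, PDGFRA stood at 2.21, 2.40 and 2.59 under hypoxia and 0.69, 0.34 and 0.60 under normoxia. Every hypoxia library lay above every normoxia library, at a low level throughout. The log2 change, hypoxia over normoxia, was 2.01 ± 0.19 (SE; edgeR adjusted p = 1.44e-10), and 171 of the 15397 genes had a larger value. Reads across exon-exon junctions, which come from spliced RNA, numbered 90, 90 and 108 under hypoxia and 17, 14 and 24 under normoxia. Such reads were thus also higher in each hypoxia library than in any normoxia library.

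PDGFRB (ENSCAFG00000018214, chromosome 4, 58926351 to 58962283, plus strand) was low, with 26, 44 and 43 reads under hypoxia and 29, 21 and 26 under normoxia. The lowest hypoxia library lay within the normoxia range. Its log2 change was 0.48 ± 0.33 with a 95% interval of -0.20 to 1.16, which did not pass (edgeR adjusted p = 0.241). PDGFRA made up 82.0%, 75.5% and 78.0% of the summed TPM of both PDGF receptors under hypoxia and 55.5%, 49.0% and 50.7% under normoxia (two-sided exact permutation p = 0.1, n = 3 each). Both receptors mark fibroblasts and pericytes in tissue, and 3 of 6 tested fibroblast markers rose (COL1A1, COL1A2 and THY1), against 24.5% of all genes tested. The other 3 were not called. The 10 fibroblast markers summed to 3073 to 3162 TPM under hypoxia and 2368 to 2505 TPM under normoxia, with RGS5 and FAP listed at 0 in all libraries and LUM and ACTA2 at 0.23 TPM or less on average. Most of each sum, and of the difference between conditions, was COL1A2, whose levels are given above. The part of these markers in the PDGFRA result was not tested. In bulk RNA, more cells of a type cannot be told apart from more RNA per cell.

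KIT, the stem cell factor receptor, lies 335.2 kb downstream of PDGFRA (ENSCAFG00000002065, chromosome 13, 47108504 to 47190029, plus strand). It stood at 11.1, 10.5 and 12.9 TPM under hypoxia and 11.7, 9.37 and 9.70 TPM under normoxia, and the groups overlapped. Its log2 change was 0.13 ± 0.093, with a 95% interval of -0.064 to 0.32 (edgeR adjusted p = 0.280). In a window reaching 500 kb to either side of the pair, 7 of 15 annotated genes were tested. Besides PDGFRA, CHIC2 rose by 0.35 ± 0.064 and SRD5A3 by 0.16 ± 0.057, and an unnamed gene, ENSCAFG00000047414, fell by 0.67 ± 0.27. KDR, the VEGF receptor on the other side of KIT, stood at 0.11 ± 0.15 and TMEM165 at -0.044 ± 0.041, and neither passed. PDGFRA had the largest change in this stretch of chromosome 13.

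Of the ERBB family, EGFR binds ligands itself, ERBB3 binds neuregulins but has little kinase activity of its own, and ERBB2 has no known ligand and acts as a partner. EGFR (ENSCAFG00000003465, chromosome 18, 5982770 to 6042631, plus strand) stood at 23.6, 21.5 and 21.9 TPM under hypoxia, against 13.1, 12.4 and 13.4 TPM under normoxia. The groups were far apart relative to their spread. Gene reads of EGFR, introns included, numbered 4292 under hypoxia and 2295 under normoxia. The log2 change was 0.82 ± 0.061 (edgeR adjusted p = 5.22e-13), higher in 3 of 3 hypoxia libraries. EGFR is also a receptor of keratinocytes, and 6 keratinocyte and epithelial markers summed to 1146 to 1294 TPM under hypoxia and 453 to 471 TPM under normoxia. Most of that difference was KRT14, at 949 TPM under hypoxia and 193 TPM under normoxia, while CDH1 rose, EPCAM fell and TP63 averaged under 1 TPM in both conditions. Their part in the EGFR result was not tested. ERBB3 (ENSCAFG00000000097, chromosome 10, 406633 to 424264, plus strand) had 24.8, 25.7 and 27.0 TPM under hypoxia and 24.1, 24.7 and 24.0 TPM under normoxia. Its groups did not overlap, but the log2 change of 0.10 ± 0.051 (95% interval -0.0012 to 0.21) did not pass (edgeR adjusted p = 0.0966). ERBB2 (ENSCAFG00000016351, chromosome 9, 22759256 to 22785294, minus strand) had 17.1, 19.5 and 17.5 TPM under hypoxia and 17.5, 17.1 and 18.6 TPM under normoxia. Its groups overlapped, and the log2 change was 0.033 ± 0.057 with a 95% interval of -0.083 to 0.15 (edgeR adjusted p = 0.668). The ERBB2 model overlaps 631 bp of MIEN1, the only such overlap among the 10 receptors, and the library kit is not stated to keep the strand, so reads there cannot be told apart.

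Within the ERBB receptors, EGFR took a larger share of the transcripts in each hypoxia library than in any normoxia library. EGFR held 36.0%, 32.2% and 33.0% of the summed TPM of EGFR, ERBB2 and ERBB3 under hypoxia, and 24.0%, 22.9% and 23.9% under normoxia. The ERBB3 share was 39.0% ± 1.41 under hypoxia and 44.2% ± 1.31 under normoxia, and the ERBB2 share 27.3% ± 1.74 and 32.2% ± 0.87. In each of these shares the conditions did not overlap (two-sided exact permutation p = 0.1 for each, the smallest possible with n = 3 each, so that none could pass 0.05). The shares add up to a whole, so they are not independent, and a larger EGFR share lowers the others. ERBB2 and ERBB3 themselves did not fall, with log2 changes of 0.033 and 0.10 from all gene reads, neither called. In TPM, EGFR lay above ERBB2 in each hypoxia library and below it in each normoxia library.

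**Figure D2:**
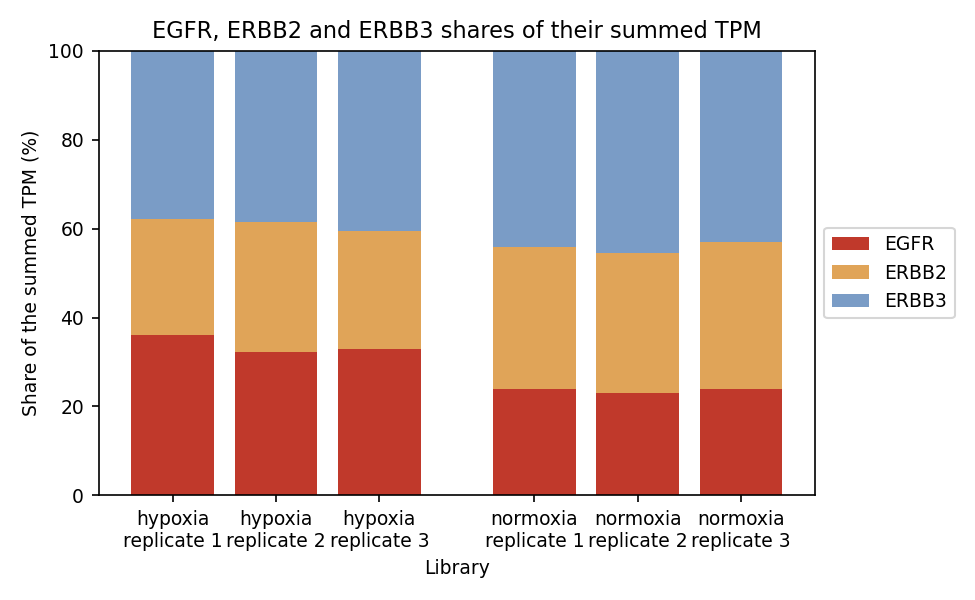
Share of EGFR, ERBB2 and ERBB3 in their summed TPM (vertical axis, percent) in each library, with hypoxia replicates on the left and normoxia replicates on the right. The red EGFR segment covers 32.2% to 36.0% in the hypoxia libraries and 22.9% to 24.0% in the normoxia libraries.

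MET (ENSCAFG00000003406, chromosome 14, 55598337 to 55724027, plus strand) had 39.5, 40.0 and 42.2 TPM under hypoxia, against 46.7, 43.2 and 45.3 TPM under normoxia. The groups did not overlap, and the log2 change was -0.15 ± 0.038 (edgeR adjusted p = 0.00191). AXL (ENSCAFG00000005041, chromosome 1, 112700365 to 112726960, minus strand) had 9.05, 9.36 and 8.90 TPM under hypoxia, against 10.1, 11.0 and 10.7 TPM under normoxia. All hypoxia values were below all normoxia values, with a log2 change of -0.27 ± 0.080 (edgeR adjusted p = 0.00564). From exon reads alone the AXL change was -0.19 ± 0.088 and did not pass (edgeR adjusted p = 0.0797), but scaled by library size alone it was -0.25 ± 0.087 and passed (edgeR adjusted p = 0.0159). MITF, the melanocyte factor whose level runs opposite to AXL in human melanoma, was at -0.083 ± 0.069 and was not called.

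IGF1R (ENSCAFG00000010881, chromosome 3, 41794623 to 42090387, plus strand) had 32.3, 34.2 and 34.4 TPM under hypoxia, against 29.6, 29.4 and 29.3 TPM under normoxia. The conditions did not overlap, and the log2 change of 0.24 ± 0.044 passed (edgeR adjusted p = 3.32e-05). FGFR1, a receptor of fibroblast growth factors (ENSCAFG00000005970, chromosome 16, 27031588 to 27078261, plus strand), had 19.3, 19.5 and 20.6 TPM under hypoxia and 20.8, 19.8 and 20.4 TPM under normoxia. These groups overlapped, and the log2 change was -0.0097 ± 0.063 with a 95% interval of -0.14 to 0.12 (edgeR adjusted p = 0.916).

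Exon and intron reads, counted separately by the authors, were also tested separately, since intron reads come largely from unspliced RNA. From exon reads, 4 receptors were higher (PDGFRA, EGFR, IGF1R and ERBB3) and 1 was lower (MET), where 24.4% of the 13458 genes tested were higher and 23.8% lower, 48.2% in all. ERBB3 was at the threshold from exon reads (0.12 ± 0.052, edgeR adjusted p = 0.0498), and it lost the call without hypoxia replicate 2 (adjusted p = 0.0819) or 3 (0.195) and without normoxia replicate 1 (0.111) or 3 (0.135), and with the replicate number as a block (0.0546), with RLE size factors (0.0560) or scaled by library size alone (0.383). The exon call of MET (-0.12 ± 0.041, edgeR adjusted p = 0.0183) was lost without hypoxia replicate 1 (adjusted p = 0.0902) or 2 (0.0738) and without normoxia replicate 1 (0.128). KIT from exon reads (0.20 ± 0.099, edgeR adjusted p = 0.0980) passed without normoxia replicate 1 (0.31, adjusted p = 0.0217). The exon calls of PDGFRA, EGFR and IGF1R passed in each of these fits.

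From intron reads, PDGFRA (1.45 ± 0.40), EGFR (0.87 ± 0.15) and IGF1R (0.32 ± 0.085) rose, and MET (-0.17 ± 0.056) and AXL (-0.66 ± 0.20) fell, where 18.7% of the 13858 genes tested were higher and 15.7% lower, 34.4% in all. The 5 receptors called from all gene reads were therefore called in the same directions from intron reads. Intron reads are a part of the gene reads, so these calls are not independent of each other. Intron reads of AXL numbered 56, 61 and 63 under hypoxia, against 96, 81 and 93 under normoxia, and made up 13.2% and 17.5% of its reads. When exon and intron changes were compared directly, with each library as a block, 0 of 9 receptors differed by edgeR (2 at an unadjusted p under 0.05), where 6.69% of 12265 genes tested did. PDGFRB had too few intron reads for that test. The exon change minus the intron change was 0.51 ± 0.21 for AXL (95% interval 0.09 to 0.93, edgeR adjusted p = 0.146) and 0.41 ± 0.20 for KIT (0.01 to 0.81, edgeR adjusted p = 0.247). For EGFR it was -0.017 ± 0.15 (-0.33 to 0.29, edgeR adjusted p = 0.968).

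**Figure D3:**
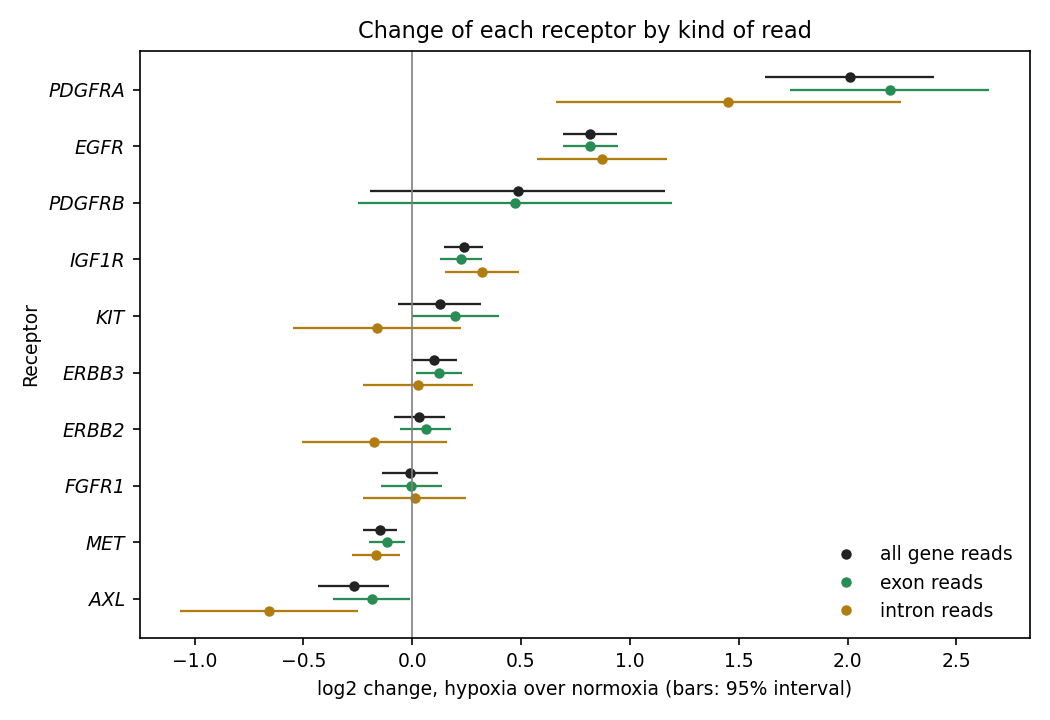
log2 change of hypoxia over normoxia (horizontal axis) for each receptor from all gene reads (black), exon reads (green) and intron reads (ochre), with 95% intervals as bars. PDGFRA (2.01) and EGFR (0.82) lie right of 0 in each kind of read, while AXL from intron reads (-0.66) lies farther left than from exon reads (-0.19).

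Of 30 ligands listed for these receptors, 18 were tested, of which 4 rose and 4 fell, 44.4% in all against 49.0% over all genes tested (median log2 change -0.011, and 0.00096 over all genes). The other 12 were 9 below the count filter, among them EGF and IGF1, and 3 with no matching symbol, TGFA, NRG4 and FGF2. FGF1, a ligand of all FGF receptors, stood at 4.19, 6.20 and 4.69 TPM under hypoxia and 0.29, 1.09 and 0.98 TPM under normoxia (log2 change 1.82 ± 0.23, edgeR adjusted p = 8.05e-08), with introns holding 70.8% of its reads. From exon reads alone the FGF1 change was 2.69 ± 0.45. IGF2, a ligand of IGF1R, stood at 12.4, 11.9 and 10.7 TPM under hypoxia and 3.70, 3.09 and 4.02 TPM under normoxia (1.81 ± 0.092, edgeR adjusted p = 3.83e-17). In both genes the conditions did not overlap. For the PDGF receptors, PDGFA rose by 0.50 ± 0.053 and PDGFB by 0.47 ± 0.12 (edgeR adjusted p = 1.59e-09 and 0.00115). A link of these rises to that of PDGFRA was not tested. PDGFC stood at 0.14 ± 0.085 and was not called.

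Ligands of KIT and of the ERBB receptors were lower or not called. KITLG, which encodes stem cell factor, stood at 16.4, 16.7 and 16.6 TPM under hypoxia, against 21.9, 19.1 and 23.5 TPM under normoxia (-0.36 ± 0.071, edgeR adjusted p = 7.53e-05). NRG1, the neuregulin that binds ERBB3, stood at 25.9, 25.5 and 26.7 TPM under hypoxia, against 40.1, 36.3 and 37.1 TPM under normoxia (-0.58 ± 0.040, edgeR adjusted p = 9.33e-14). HBEGF, a ligand of EGFR, stood at 10.6, 9.77 and 10.3 TPM under hypoxia, against 16.0, 15.5 and 17.9 TPM under normoxia (-0.53 ± 0.081, edgeR adjusted p = 1.52e-06). The conditions did not overlap in any of these 3 ligands, but from intron reads alone HBEGF was at -0.27 ± 0.14 and not called (edgeR adjusted p = 0.121). NRG2, at 0.53 TPM under hypoxia and 0.96 TPM under normoxia on average, fell by 0.72 ± 0.28 (edgeR adjusted p = 0.0299). Its groups overlapped, and the call was lost in DESeq2 (adjusted p = 0.0536), without hypoxia replicate 1 (0.0618) or 3 (0.170), and without normoxia replicate 1 (0.0528) or 3 (0.166). It was also lost from exon reads (-0.81, adjusted p = 0.0704) and from intron reads (-0.61, adjusted p = 0.205), and leaving out 1 library moved the log2 change between -1.01 without hypoxia replicate 2 and -0.48 without hypoxia replicate 3. EREG, another EGFR ligand, was at -0.14 ± 0.070, GAS6, the ligand of AXL, at -0.022 ± 0.086, and HGF, the ligand of MET, at -0.036 ± 0.41 with 57 reads under hypoxia and 55 under normoxia. None of these 3 was called. NRG3 was listed at 0 TPM in all libraries, its reads lying in introns.

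**Figure D4:**
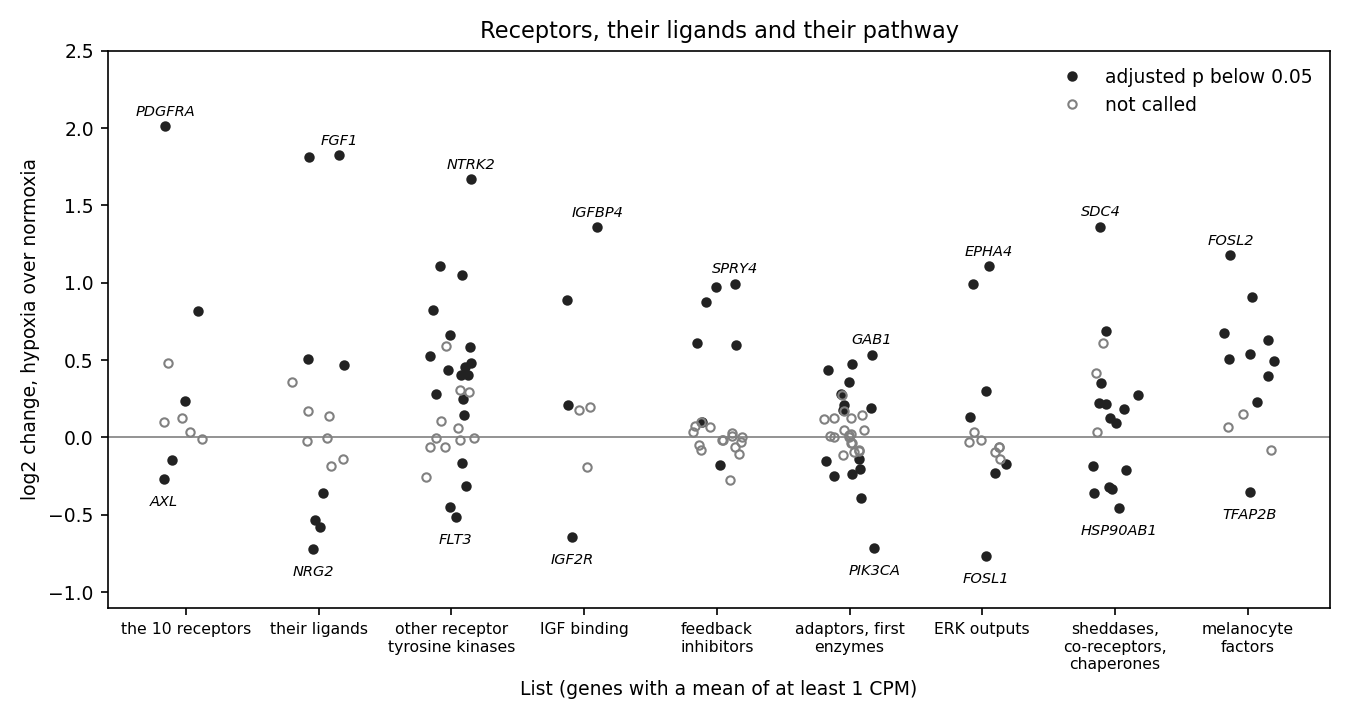
log2 change of hypoxia over normoxia (vertical axis) for the genes of each list with a mean of at least 1 CPM; each point is a gene, filled where the adjusted p was below 0.05, and the highest and lowest called gene of a list are named, where the list's extreme gene was called. The ligands spread from NRG2 (-0.72) to FGF1 (1.82), and among other receptor tyrosine kinases NTRK2 (1.67) is highest.

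Outside the 10 receptors, 34 other receptor tyrosine kinases were tested, and 16 of them rose while 4 fell, against 24.5% higher and 24.4% lower over all genes tested (median log2 change 0.30). NTRK2, the receptor of brain-derived neurotrophic factor, stood at 3.62 ± 0.81 TPM under hypoxia and 1.21 ± 0.29 TPM under normoxia (1.67 ± 0.10), with 70.5% of its reads in introns. The ephrin receptors EPHA4 (1.11 ± 0.18) and EPHB3 (1.05 ± 0.16) also rose. RYK, a receptor for WNT ligands and the most abundant of these genes, averaged 221 TPM under hypoxia and 224 TPM under normoxia and was not called.

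Around IGF1R, 8 binding proteins and related genes of the IGF ligands were tested, of which 4 rose and 1 fell, 62.5% in all against 49.0% over all genes (median 0.20). IGFBP4, which holds IGF away from its receptor, stood at 163 ± 10.2 TPM under hypoxia and 62.3 ± 6.05 TPM under normoxia (1.36 ± 0.035). Its model overlaps that of TNS4 over 17399 bp and 71.9% of its reads lay in introns, so its value is uncertain. The IGFBP4 change was 1.42 ± 0.056 from exon reads alone and 1.35 ± 0.047 from intron reads alone. IGFBP5 rose by 0.89 ± 0.066, and IGF2R, which clears IGF2 from the cell surface, fell by 0.64 on the log2 scale. IGFBP2, singled out after its values were seen, had 94 reads over the hypoxia libraries and 0 over the normoxia libraries. With 3 reads taken as the limit of the normoxia group, the ratio was 29.5-fold. The error of the hypoxia count is left out, so this is not a strict lower bound.

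Feedback regulators damp receptor signals. Of 23 tested, 7 rose and 1, PTPN1, fell, 34.8% in all against 49.0% over all genes (median 0.031). SPRY4 (0.99 ± 0.14) and SPRY1 (0.97 ± 0.079), Sprouty inhibitors of ERK signalling, rose, as did the ubiquitin ligase CBLB (0.88 ± 0.083), whose model overlaps that of ALCAM over 170223 bp, so that its reads may be shared. SPRY2, the most abundant member, stood at 89.9 TPM under hypoxia and 89.5 TPM under normoxia and was not called. Scaled by library size alone, 3 members of this list were lower, and with unique reads, or without hypoxia replicate 3 or normoxia replicate 1, 2 were.

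Of 34 adaptors and first enzymes, 8 rose and 7 fell, 44.1% in all, near the 49.0% over all genes (median 0.019). The PI3K catalytic subunit PIK3CA fell to 51.6 ± 2.72 TPM under hypoxia, against 86.0 ± 4.91 TPM under normoxia (-0.71 ± 0.044), while the adaptors GAB1 (0.54 ± 0.052) and NCK2 (0.48 ± 0.044) rose. AKT1, the most abundant member, rose by 0.21 ± 0.035. Scaled by library size alone, 11 of this list were lower. Of 14 transcripts known as ERK outputs, 4 rose and 3 fell, 7 of 14 against 49.0% over all genes (median -0.045). EPHA4 and SPRY4, named above, rose, and FOSL1, an AP-1 subunit, fell by 0.76 on the log2 scale. IER3, the most abundant, was called higher (0.13 ± 0.045, edgeR adjusted p = 0.0156) but not without hypoxia replicate 2 (adjusted p = 0.0625) or normoxia replicate 1 (0.0654), nor from intron reads alone (0.105), scaled by library size alone (0.236) or at a threshold of 0.01. With that scaling 6 ERK outputs were lower.

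Among 18 sheddases, co-receptors and chaperones, 9 rose and 6 fell, 83.3% in all, where 24.5% of all genes tested were higher and 24.4% lower (median 0.15). Syndecan SDC4, a co-receptor for FGF, stood at 162 ± 2.35 TPM under hypoxia and 65.3 ± 3.12 TPM under normoxia (1.36 ± 0.044), and CD44, a co-receptor of MET, rose by 0.69 ± 0.034. HSP90AB1, a chaperone on which several receptor kinases depend, fell to 1175 ± 19.8 TPM under hypoxia, against 1640 ± 27.4 TPM under normoxia (-0.45 ± 0.033). From intron reads alone it was at -0.28 ± 0.12 and not called (edgeR adjusted p = 0.0725), with 0.68% of its reads in introns. Of 13 transcription factors of the melanocyte lineage and of melanoma states, 9 rose and 1, TFAP2B, fell, where 24.5% of all genes were higher and 24.4% lower (median 0.50). The AP-1 subunits FOSL2 (1.18 ± 0.037) and JUN (0.91 ± 0.056) and the neural crest factor FOXD3 (0.68 ± 0.14) had the largest changes, and FOXD3 lost its call from intron reads alone (0.44 ± 0.23, edgeR adjusted p = 0.142).

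For likeness of pattern, log2(CPM + 0.1) values were centred on the normoxia mean, and the root mean square distance over the 6 libraries was taken against 11615 named genes. In a series of only hypoxia and normoxia, this distance mostly picks genes with a like log2 change. The like changes given below therefore follow from the choice. Nearest to PDGFRA, the receptor with the largest rise, were RXRG (distance 0.11), CA12 (0.11) and PFKFB3 (0.12), with log2 changes of 2.09 ± 0.14, 1.96 ± 0.092 and 1.93 ± 0.065. Nearest to AXL, the receptor with the largest fall, were NELFA, PSMD4 and RFNG (distances 0.014, 0.015 and 0.015), which changed by -0.28 ± 0.056, -0.25 ± 0.041 and -0.28 ± 0.042. RFNG was not called from intron reads alone (-0.11 ± 0.096, edgeR adjusted p = 0.424).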

How the data were processed

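Polyadenylated RNA was sequenced in paired ends, per the labels' protocols. Reads were counted per gene on CanFam3.1, per the submitters' processing notes; which aligner and counter were used is not given in the sources used here. The deposited counts are, per the file headers, total and unique reads per gene, exon, exon-exon junction and intron. Deposited TPM and RPKM values, per the file headers, are per exon length; TPM served for levels, RPKM as an alternative.

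From total gene counts, genes were kept by filterByExpr, scaled by TMM and tested with edgeR 4.0.16 (quasi-likelihood, robust, no covariates) in R 4.3.3 with limma 3.58.1, adjusted by Benjamini-Hochberg over 15397 genes. SE is the log2 change over the root of F. Exon against intron changes were a region by condition term with library as a block. DESeq2 1.42.0, other scalings, filters, kinds of read and thresholds, a replicate block and leaving out each library were alternatives, and figures used matplotlib 3.10.9. Totals of 23196647 to 28804337 reads limit precision mainly for low genes. Replicates differed by more than sampling noise (chi-square per degree of freedom 4.29 to 13.7), and each counted as 1 sample.

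The members and lists were chosen with earlier results of these data known. Named were all receptors, called ligands with a log2 change of at least 0.5 in size, and of each other list the 3 largest called changes with a mean of at least 1 CPM and the most abundant member; other genes given as examples were picked with their values known. No sequence was printed, as the reference used holds none.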

Additional observations from a re-analysis of the deposited data

How the results depend on the processing

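The counts of receptors called, 3 higher and 2 lower, were the same under each alternative run except exon reads only (4 higher and 1 lower). PDGFRA, EGFR, IGF1R and MET kept direction and call in all 17 alternatives, with log2 changes of 1.45 to 2.20, 0.75 to 0.87, 0.17 to 0.32 and -0.21 to -0.12, and AXL (-0.66 to -0.19) in all but exon reads only. Libraries of equal replicate number showed no likeness in their deviations from the group mean (correlations -0.09, 0.03 and -0.05). No hypoxia library correlated best with the normoxia library of its own number. With 3 libraries in each condition, these values cannot show whether the libraries were paired. With the replicate block, 3769 genes were called higher and 3793 lower, 3 receptors higher and 2 lower, and, from exon reads, 3 higher and 1 lower. Scaling by library size alone called 3076 genes higher and 4863 lower, against 3778 and 3761 with TMM, and the median of all genes was -0.07.

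Some signs turned in genes that were not called. ERBB2 was at -0.033 with library size only and -0.17 from intron reads, KIT at -0.16 and FGFR1 at 0.012 from intron reads. RYK was at 0.0039 with upper quartile factors and 0.019 from exon reads, and SPRY2 at 0.041 from exon reads. Leaving out 1 library gave -0.022 to 0.064 for ERBB2, -0.058 to 0.017 for FGFR1, -0.030 to 0.023 for RYK and -0.054 to 0.018 for SPRY2. From exon reads, leaving out 1 library left 0 to 1 receptors lower, and with library size only 2 were. From intron reads alone, 2173 genes, 2 ligands, 0 feedback regulators, 4 adaptors and 1 gene of the co-receptor list were lower, and 5 adaptors and 2 genes of the IGF list higher; fewer intron reads were tested per gene. Library size only left 3 feedback regulators, 11 adaptors and 6 ERK outputs lower, and unique reads only 2 feedback regulators. Leaving out 1 library gave 1 to 2 feedback regulators lower. The causes were not tested. Among the 10 receptors, PDGFRB had the fewest reads, 113 under hypoxia and 76 under normoxia.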
